A study of Danio rerio with 6 samples.

Results

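The annexin genes *anxa1a*, *anxa1b*, *anxa1c*, *anxa1d*, *anxa2a*, *anxa2b*, *anxa3b*, *anxa4*, *anxa5b* and *anxa6* were followed in sorted zebrafish embryonic cells. All 10 were found among the 26190 gene identifiers measured, 9 of them by symbol. *anxa1d* is listed under the older symbol zgc:110283 and was found through its identifier ENSDARG00000098481. Another 7 annexin genes are in the same data and serve as a comparison.

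Annexins are cytoplasmic proteins that bind phospholipid membranes when calcium is present, through a conserved core built of annexin repeats. They are known for roles in membrane traffic, in linking membranes to the actin cytoskeleton and in resealing torn plasma membranes, and in mammals annexin A1 and annexin A2 are abundant in surface epithelia. The periderm, called the enveloping layer (EVL) in the early zebrafish embryo, is the flat outermost cell layer, which is exposed to the outside medium and stretches over the embryo during epiboly.

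RNA was measured in 3 libraries of GFP-positive and 3 libraries of GFP-negative cells, all sorted at the 4-somite stage from embryos of the line *Tg(krt4:GFP)*. The transgene drives GFP from a regulatory element of the keratin gene *krt4*, so a GFP-positive cell is one with enough reporter protein to pass the sort. The GFP-negative cells are a mixture of cell types sorted as lacking it. Both populations carry the transgene and no other treatment. Each group has replicates numbered 1 to 3, described as biological replicates from independent incrosses.

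The libraries held 40584467 to 49679602 estimated counts each. *krt4* itself had 2384, 2315 and 2591 transcripts per 1000000 transcripts (TPM) in GFP-positive libraries 1, 2 and 3, against 545, 624 and 636 TPM in GFP-negative libraries 1, 2 and 3, so the sort separated the reporter's source gene without removing it from the GFP-negative cells. Counts of higher and lower genes follow the rule for calls given below, by which 24.1% of all genes tested were higher and 25.0% lower. Of 11 EVL markers, *krt4* among them, 10 were higher in GFP-positive cells. *grhl3* was not called, with a mean of 7.4 TPM in GFP-positive and 7.51 TPM in GFP-negative cells. The summed level of the list was 5290 to 5540 TPM in GFP-positive and 866 to 966 TPM in GFP-negative libraries. The largest part of this sum was *krt4* itself. Markers of other cells moved with GFP too. All 5 hatching gland genes that were found were higher, with a sum of 3320 to 3460 TPM in GFP-positive and 468 to 479 TPM in GFP-negative libraries, as were 4 of 5 notochord genes, with 576 to 707 TPM in GFP-positive and 155 to 158 TPM in GFP-negative libraries. The hatching enzyme gene *he1a* had 1770 to 1840 TPM in GFP-positive and 196 to 204 TPM in GFP-negative libraries. Of 5 basal epidermis genes, 3 were higher (*tp63*, *krtt1c19e* and *cldni*), with a list sum of 566 to 647 TPM in GFP-positive and 326 to 355 TPM in GFP-negative libraries. Of 7 blood and endothelium genes, 4 were higher and 1 lower, with 691 to 741 TPM in GFP-positive and 482 to 506 TPM in GFP-negative libraries. All 7 neural genes were lower, with 517 to 522 TPM in GFP-positive and 978 to 997 TPM in GFP-negative libraries. Of 6 paraxial mesoderm genes, 4 were lower and 1 higher. Higher were also 3 of 7 ionocyte genes, 2 of 4 endoderm genes and 1 of 7 yolk syncytial layer genes tested, with 0 lower in these lists. These marker lists move with the same contrast as every annexin difference given here, and their part in those differences was not tested. In bulk samples, fewer cells of a type and less RNA per cell cannot be told apart.

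**Figure D1:**
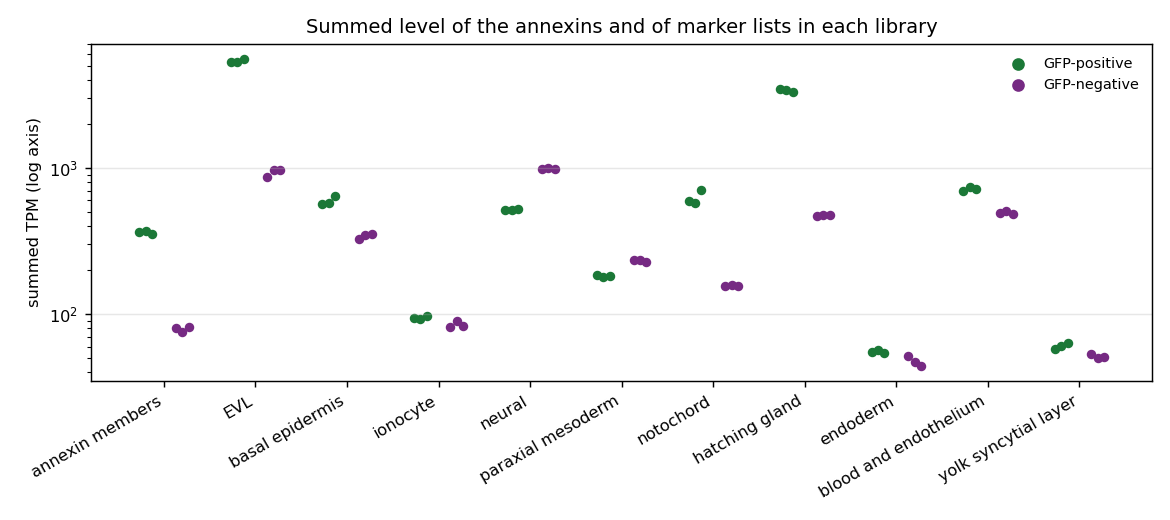
Summed TPM (log axis) of the 10 annexins and of 10 marker lists in each GFP-positive (green) and each GFP-negative (purple) library, 1 point per library. These 10 annexins lie at 353 to 369 TPM in GFP-positive and 75.1 to 81.0 TPM in GFP-negative libraries. All 17 annexin genes, not drawn, sum to 593 to 602 TPM in GFP-positive and 291 to 295 TPM in GFP-negative libraries. Of the 10 marker lists 8, EVL, hatching gland and notochord among them, are separated in the same direction. The neural and paraxial mesoderm lists are separated in the opposite one.

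Annexin transcripts were more abundant in GFP-positive than in GFP-negative cells for most of the family. Calls rest on 2 conditions, an adjusted p below 0.05 (edgeR's quasi-likelihood test, Benjamini-Hochberg adjustment over all 20944 genes tested) and an average above 1 TPM in whichever population had more of the transcript. By this rule 8 of the 10 annexins were higher in GFP-positive cells, against 24.1% of all genes tested, and 0 were lower, against 25.0% of all genes tested. The 0 lower stands beside 0 with an unadjusted p below 0.05, since both uncalled genes had larger p values, beside 0 by DESeq2 and beside 1 by limma on log2 TPM. At least 2-fold higher were 6 of the 10, against 8.45% of all genes tested. *anxa6* fell just short at 1.99-fold, which rounds to a log2 fold change of 1.00. The median log2 fold change of the 10 was 1.48, beside 0.02 over all genes tested. In TPM, every GFP-positive library lay above every GFP-negative library for 7 of the 10, against 24.2% of all genes tested. All 10 passed the filter on low counts.

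**Figure D2:**
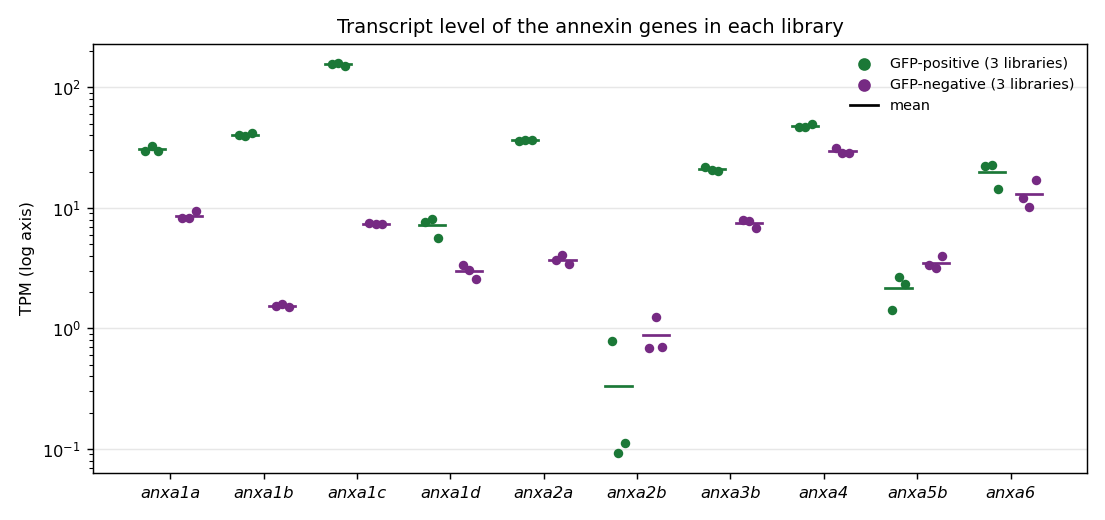
TPM (log axis) of each annexin gene in the 3 GFP-positive (green) and 3 GFP-negative (purple) libraries; points are libraries and lines are group means. *anxa1c* stands highest in GFP-positive cells at 152 to 158 TPM, while *anxa4* stands highest in GFP-negative cells at 28.3 to 31.5 TPM.

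Among the 10 genes, the one with the highest level was *anxa1c* in GFP-positive and *anxa4* in GFP-negative cells. *anxa1c* made up 43.0% of their summed TPM in each of the 3 GFP-positive libraries, but 9.12 to 9.73% in GFP-negative libraries. *anxa4* made up 12.8 to 14.2% in GFP-positive and 34.9 to 39.4% in GFP-negative libraries, and *anxa6* 4.08 to 6.19% in GFP-positive and 13.4 to 21.0% in GFP-negative libraries. With the other 7 annexins included, *anxa1c* held 25.3 to 26.4% in GFP-positive and 2.48 to 2.56% in GFP-negative libraries, and *anxa11a*, which is not among the 10, held 20.6 to 22.4% in GFP-positive and 39.5 to 40.2% in GFP-negative libraries. By mean TPM, which is per transcript length, the order of the 10 in GFP-positive cells was *anxa1c*, *anxa4*, *anxa1b*, *anxa2a*, *anxa1a*, *anxa3b*, *anxa6*, *anxa1d*, *anxa5b* and *anxa2b*. Only *anxa3b* and *anxa6* overlapped as neighbours in that order. In GFP-negative cells the order was *anxa4*, *anxa6*, *anxa1a*, *anxa3b*, *anxa1c*, *anxa2a*, *anxa5b*, *anxa1d*, *anxa1b* and *anxa2b*. There, *anxa3b* overlapped *anxa1c*, and *anxa5b* overlapped both *anxa2a* and *anxa1d*. The *anxa6* share and place in GFP-negative cells include a 413-base transcript model with 31.8 to 64.8% of its TPM there. The 1987-base *anxa6* transcript alone averaged 6.18 TPM in GFP-negative cells, below the main transcripts of *anxa1a* (7.36 TPM) and *anxa3b* (7.14 TPM).

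The *anxa1* paralogs correspond to mammalian annexin A1, a substrate of growth factor receptor kinases and, once secreted, a ligand of formyl peptide receptors. *anxa1c* (ENSDARG00000104359) had 156, 158 and 152 TPM in GFP-positive libraries 1 to 3, against 7.45, 7.31 and 7.39 TPM in GFP-negative libraries 1 to 3. The libraries of each group lay close together and the groups were far apart, with a mean of 156 ± 3.55 TPM in GFP-positive and 7.38 ± 0.0726 TPM in GFP-negative cells (SD, n = 3 each). Its log2 fold change was 4.83 with a standard error of 0.09 (edgeR, adjusted p = 1.15e-14). It ranked 48 of the 20944 genes tested by fold change and 1173 of 26190 by mean TPM in GFP-positive cells.

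*anxa1b* (ENSDARG00000100095) showed a difference of the same size in counts, at a lower level. The ratio of mean TPM was 26.3 for *anxa1b* and 21.1 for *anxa1c*. It had 40.5, 39.4 and 41.6 TPM in GFP-positive libraries, against 1.53, 1.58 and 1.51 TPM in GFP-negative libraries, which did not overlap. In estimated counts this was 2358, 1849 and 2155 in GFP-positive and 77, 66 and 70 in GFP-negative libraries. The log2 fold change was 4.84 with a standard error of 0.10 (edgeR, adjusted p = 3.48e-14), and the gene ranked 45 by fold change.

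*anxa1a* (ENSDARG00000026726) was higher by a smaller factor. It had 29.9, 32.9 and 29.9 TPM in GFP-positive libraries, against 8.18, 8.19 and 9.35 TPM in GFP-negative libraries. No library of one group reached the other, and the log2 fold change was 2.0 with a standard error of 0.11 (edgeR, adjusted p = 2.08e-09). The least abundant *anxa1* paralog was *anxa1d*, with 7.67, 8.16 and 5.62 TPM in GFP-positive libraries, against 3.36, 3.05 and 2.59 TPM in GFP-negative libraries. These groups did not overlap either, and the log2 fold change was 1.34 with a standard error of 0.23 (edgeR, adjusted p = 0.000196).

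In the RefSeq annotation of the GRCz12tu assembly, *anxa1d*, *anxa1c* and *anxa1b* follow one another as neighbouring protein-coding genes, whereas *anxa1a* lies between *mfsd3* and *kifl*. The estimated counts of the 3 neighbours were rarely whole numbers. They came within 0.1 of a whole number in 3 of 6 libraries for *anxa1b* and in 1 of 6 for each of *anxa1c* and *anxa1d*, which means that some reads were divided between these genes and other transcripts, so the level of any single one is uncertain. The other 7 annexins followed here had whole counts in 6 of 6 libraries. Summing the 3 neighbours gave 205, 206 and 199 TPM in GFP-positive libraries, against 12.3, 11.9 and 11.5 TPM in GFP-negative libraries, and a log2 fold change of 4.54 with a standard error of 0.08 (edgeR, adjusted p = 5.03e-15). With *anxa1a* added, the *anxa1* sum was 234 ± 5.14 TPM in GFP-positive and 20.5 ± 0.357 TPM in GFP-negative cells (SD, n = 3 each), with a log2 fold change of 3.86. The counts of each sum came within 0.1 of a whole number in 1 of 6 libraries. Some reads thus remained divided between these genes and other transcripts after summing. Over all genes, 70.2% of values of 10 or more counts were whole by the same limit.

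Annexin A2 binds actin filaments and phosphoinositides, and in mammals it forms a complex with the small protein S100A10. Of its zebrafish paralogs, *anxa2a* (ENSDARG00000003216) had 36.1, 36.6 and 36.8 TPM in GFP-positive libraries, against 3.67, 4.10 and 3.42 TPM in GFP-negative libraries. The spread over the GFP-positive libraries was an SD of 0.376 TPM, and the groups did not overlap. The log2 fold change was 3.40 with a standard error of 0.10 (edgeR, adjusted p = 1.24e-12), the largest among the annexins after the *anxa1b* and *anxa1c* genes.

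*anxa2b* (ENSDARG00000053625) was near the floor in both populations. It had 0.788, 0.0917 and 0.111 TPM in GFP-positive libraries, from 32, 3 and 4 estimated counts, against 0.683, 1.24 and 0.696 TPM in GFP-negative libraries, from 24, 37 and 23 counts. GFP-positive library 1 stood at the level of the GFP-negative libraries and the other two GFP-positive libraries lay below them. The log2 fold change was -1.21 with a standard error of 0.66 and the gene was not called (edgeR, adjusted p = 0.14). Without GFP-positive replicate 1 the log2 fold change was -2.98 (edgeR, adjusted p = 0.00202), so this library decides the value, though with GFP-negative cells averaging 0.874 TPM the gene stayed under the level required for a call. The *anxa2* sum was 36.8 ± 0.117 TPM in GFP-positive and 4.61 ± 0.651 TPM in GFP-negative cells (SD, n = 3 each).

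Annexin A3 is known in mammals from the granules of neutrophils, annexin A4 from secretory and absorptive epithelia, and annexin A6 is unusual in carrying a duplicated core. *anxa3b* (ENSDARG00000044254) had 21.8, 20.5 and 20.3 TPM in GFP-positive libraries, against 7.97, 7.73 and 6.79 TPM in GFP-negative libraries. The groups did not overlap, and the log2 fold change was 1.63 with a standard error of 0.11 (edgeR, adjusted p = 2.03e-08). *anxa4* (ENSDARG00000036456) had 47.3, 47.2 and 50.1 TPM in GFP-positive libraries, against 31.5, 28.7 and 28.3 TPM in GFP-negative libraries. Of the 10 it had the smallest called difference, a log2 fold change of 0.82 with a standard error of 0.07 (edgeR, adjusted p = 4.6e-07), and the highest level in GFP-negative cells.

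For *anxa6* (ENSDARG00000013335) TPM and counts gave different pictures. It had 22.2, 22.8 and 14.4 TPM in GFP-positive libraries, against 12.1, 10.1 and 17.0 TPM in GFP-negative libraries, so the TPM values overlapped. In estimated counts the groups were separate, with 997, 732 and 716 in GFP-positive and 443, 366 and 370 in GFP-negative libraries, and the log2 fold change was 1.00 with a standard error of 0.12 (edgeR, adjusted p = 7.19e-06). On TPM the difference was smaller, 0.57 with limma on log2(TPM + 1) (adjusted p = 0.0463) and 0.60 with limma on log2(TPM + 0.1) (adjusted p = 0.0467). The overlap came with a transcript model of 413 bases, ENSDART00000148807, to which 15 to 46 counts in GFP-positive and 13 to 50 counts in GFP-negative libraries were assigned. Because TPM divides by length, these few counts held 21.9 to 47.2% of the gene's TPM in GFP-positive and 31.8 to 64.8% in GFP-negative libraries. The 1987-base transcript ENSDART00000105346 had 12.6, 12.1 and 10.9 TPM in GFP-positive libraries, against 6.47, 6.87 and 5.21 TPM in GFP-negative libraries, and did not overlap (log2 fold change 1.07; edgeR on transcripts, adjusted p = 0.0016).

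Annexin A5 binds exposed phosphatidylserine and is widely used to stain dying cells. *anxa5b* (ENSDARG00000016470) was not called. It had 1.42, 2.69 and 2.32 TPM in GFP-positive libraries, against 3.39, 3.17 and 3.98 TPM in GFP-negative libraries, which do not overlap, but its estimated counts of 94, 122 and 136 in GFP-positive and 149, 101 and 167 in GFP-negative libraries did overlap. The log2 fold change in counts was -0.28 with a standard error of 0.22 (edgeR, adjusted p = 0.295), whereas limma on log2(TPM + 1) gave a difference of -0.54 (adjusted p = 0.0274). The 963-base transcript ENSDART00000161874 had 0, 14 and 0 counts in GFP-positive libraries, against 29, 34 and 31 in GFP-negative libraries, without passing the test (edgeR on transcripts, log2 fold change -2.64, adjusted p = 0.185). The 1881-base transcript ENSDART00000019698 had 94, 108 and 136 counts in GFP-positive libraries, against 120, 67 and 136 in GFP-negative libraries, and a log2 fold change of 0.05 (adjusted p = 0.916).

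**Figure D3:**
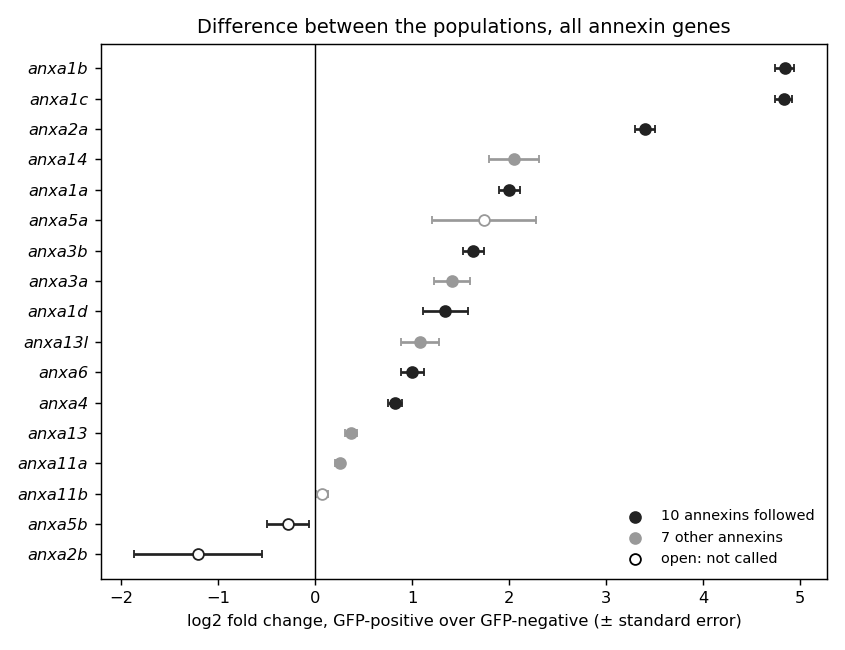
Log2 fold change of GFP-positive over GFP-negative cells with its standard error, for the 10 annexins followed (black) and the 7 other annexins (grey); filled points were called higher and open points were not called. *anxa1b* and *anxa1c* stand apart at 4.84 and 4.83, and *anxa5b* and *anxa2b* are the genes left of 0, neither of them called.

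In TPM, the transcript models of *anxa1c* were also listed in different proportions in the 2 populations. Of 29 transcripts of the 10 genes, 16 had enough counts to be tested, and 10 rose in GFP-positive cells and 0 fell, at an adjusted p below 0.05, against 17.7% higher and 17.0% lower among all 32736 transcripts tested. The main *anxa1c* transcript, ENSDART00000166183, held 66.1 to 70.5% of the gene's TPM in GFP-positive and 31.7 to 41.7% in GFP-negative libraries, and its log2 fold change was 5.36 (edgeR on transcripts, adjusted p = 1.74e-06). The 713-base *anxa1c* transcript ENSDART00000170518 had 11, 26 and 38 counts in GFP-positive libraries, against 33, 33 and 34 counts in GFP-negative libraries. Its groups overlapped and it was not called (log2 fold change -0.44, adjusted p = 0.555), and it held 0.452 to 1.79% of the gene's TPM in GFP-positive and 32.4 to 38.3% in GFP-negative libraries. The second *anxa1b* transcript, ENSDART00000170560, was listed at 0 counts in 3 GFP-positive libraries, against 0, 32 and 36 counts in GFP-negative libraries, although the main transcript had 1849 to 2358 counts in GFP-positive libraries. The shares themselves were not tested between populations. Because TPM divides by length, short models weigh more in these shares than in counts. In GFP-negative libraries the 713-base model had 33, 33 and 34 of the 165, 134 and 157 *anxa1c* counts. Some *anxa1c* reads were also divided with other transcripts, as described above.

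**Figure D4:**
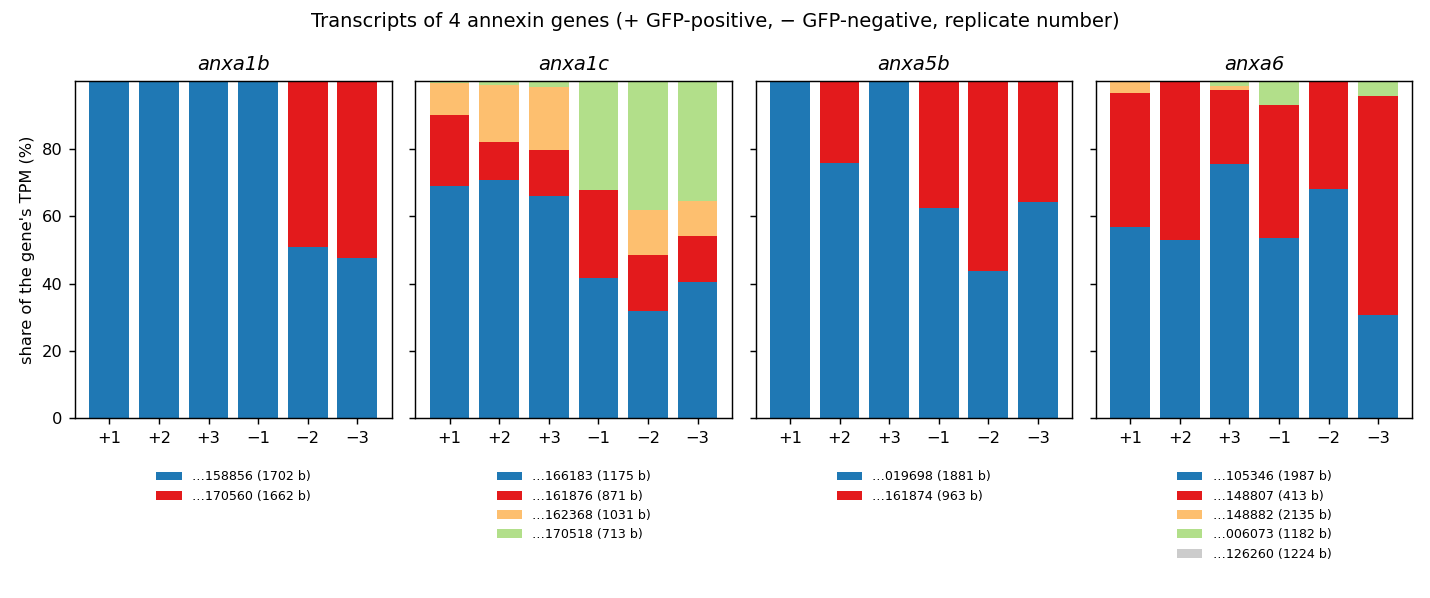
Share of each gene's TPM (%, bars sum to 100) held by its transcripts in the 3 GFP-positive (+1 to +3) and 3 GFP-negative (−1 to −3) libraries, for *anxa1b*, *anxa1c*, *anxa5b* and *anxa6*; legends give the last 6 digits of the Ensembl transcript and its length in bases (b). In *anxa1c* the 713-base transcript holds 0.452 to 1.79% in GFP-positive and 32.4 to 38.3% in GFP-negative libraries, and in *anxa6* the 413-base transcript varies from library to library in both groups.

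The balance between paralogs was compared within each library, as log2(TPM + 1) of the first gene minus that of the second, for 9 pairs. Between *anxa1a* and *anxa1b* the balance was -0.43, -0.25 and -0.46 in GFP-positive libraries, against 1.86, 1.83 and 2.04 in GFP-negative libraries, so *anxa1b* was the more abundant of the pair in GFP-positive and *anxa1a* in GFP-negative cells. The *anxa1a* to *anxa1c* balance likewise averaged -2.30 in GFP-positive and 0.19 in GFP-negative cells. *anxa2a* exceeded *anxa2b* by 4.86 ± 0.42 in GFP-positive and 1.35 ± 0.15 in GFP-negative cells (SD, n = 3 each), a difference of 3.51. The other differences, GFP-positive minus GFP-negative, were 0.72 for *anxa1a* to *anxa1d*, 3.01 for *anxa1b* to *anxa1d*, 3.21 for *anxa1c* to *anxa1d*, 0.30 for *anxa3b* to *anxa3a* and -1.01 for *anxa5b* to *anxa5a*. The *anxa1b* to *anxa1c* balance differed by -0.19, a value that turned to 0.25 with log2(TPM + 0.1). The *anxa3b* to *anxa3a* difference was 0.10 without GFP-negative replicate 3, and 0.16 with log2(TPM + 0.1), where the exact permutation test gave p = 1.0. The *anxa5b* to *anxa5a* difference was -2.01 with log2(TPM + 0.1) and -0.60 with normalized CPM in place of TPM. With log2(TPM + 1), no pair overlapped between populations. How often other pairs of genes separate in this way was not counted. Each of the 9 pairs had p = 0.1 in a two-sided exact permutation test (0.1 after Benjamini-Hochberg adjustment over them). This is the smallest p that 3 against 3 libraries allow, so none of these differences could pass a threshold of 0.05. Balances with *anxa1b*, *anxa1c* or *anxa1d* also carry the uncertainty of their divided reads.

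**Figure D5:**
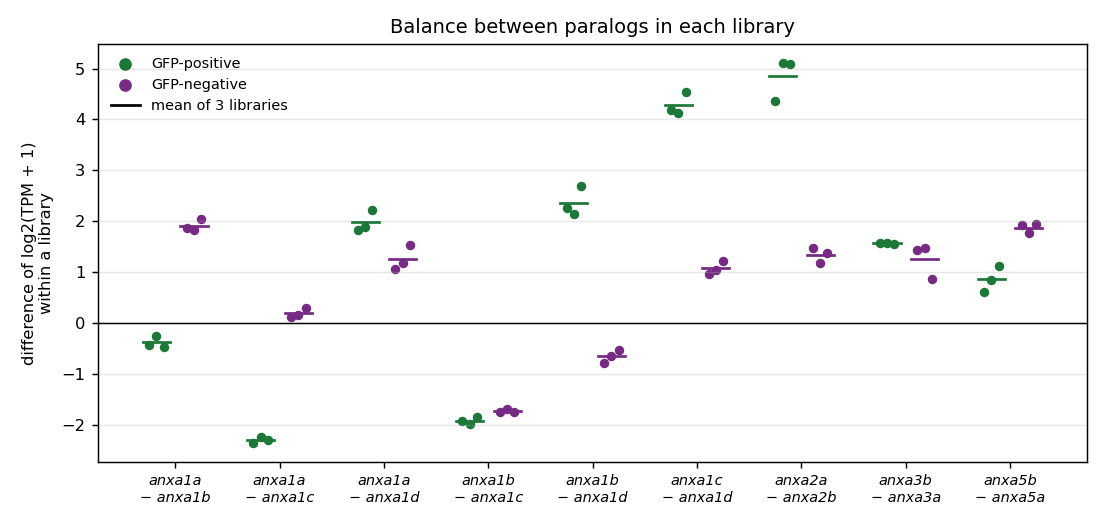
Difference of log2(TPM + 1) between the paralogs named on the horizontal axis, first minus second, in each GFP-positive (green) and GFP-negative (purple) library; lines are means of 3 libraries. The *anxa1a* to *anxa1b* balance is below 0 in all 3 GFP-positive libraries and above 0 in all 3 GFP-negative libraries, and *anxa2a* exceeds *anxa2b* by 4.37 to 5.11 in GFP-positive and 1.19 to 1.47 in GFP-negative libraries.

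Of the other 7 annexins, 5 were called higher in GFP-positive cells and 0 lower, against 24.1% and 25.0% of all genes tested, and 3 were at least 2-fold higher, against 8.45%. Their summed level was 229 to 248 TPM in GFP-positive and 211 to 220 TPM in GFP-negative libraries. For all 17 annexins the sum was 593 to 602 TPM in GFP-positive and 291 to 295 TPM in GFP-negative libraries. *anxa14* had 2.73, 2.86 and 4.57 TPM in GFP-positive libraries, against 1.1, 1.02 and 0.724 TPM in GFP-negative libraries, and a log2 fold change of 2.05 (edgeR, adjusted p = 1.44e-05). *anxa3a* had a log2 fold change of 1.41 and *anxa13l* one of 1.08. The most abundant, *anxa11a*, differed little, with 124 to 134 TPM in GFP-positive and 116 to 118 TPM in GFP-negative libraries (log2 fold change 0.25), and *anxa13* had a log2 fold change of 0.37. *anxa11b* was not called, with 56.9 to 59.6 TPM in GFP-positive and 59.7 to 67.9 TPM in GFP-negative libraries. *anxa5a* had an adjusted p of 0.0142 in edgeR and a log2 fold change of 1.74, but averaged 0.718 TPM in GFP-positive cells and so fell short of the level required for a call. The *anxa1b*, *anxa1c* and *anxa2a* differences of 4.84, 4.83 and 3.40 were therefore above that of every other annexin gene measured.

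S100 proteins are small calcium-binding proteins, several of which pair with annexins in mammals. Of 14 listed genes, 13 were tested, 9 were higher in GFP-positive cells and 0 lower, against 24.1% and 25.0% of all genes tested, and 7 were at least 2-fold higher, against 8.45%. *s100a10b*, a zebrafish counterpart of the annexin A2 partner, had 139, 134 and 114 TPM in GFP-positive libraries, against 22.6, 19.7 and 24.6 TPM in GFP-negative libraries. Its log2 fold change was 2.48 (edgeR, adjusted p = 5.1e-10). It thus lay above *anxa2a* in TPM in every library of both groups, and the balance of the 2 genes was not tested. Its paralog *s100a10a* was near the floor and not tested, with 24, 18 and 9 counts in GFP-positive and 8, 3 and 6 in GFP-negative libraries. *s100a11*, whose mammalian counterpart pairs with annexin A1, had 15.6 to 20 TPM in GFP-positive and 17.7 to 21.5 TPM in GFP-negative libraries and was not called (log2 fold change -0.11; adjusted p = 0.681). The largest S100 differences were those of the ictacalcin gene *icn2* (log2 fold change 5.53), of *s100v1* (3.99) and of *s100w* (3.46). *icn2* had 239 to 258 TPM in GFP-positive and 2.79 to 8.45 TPM in GFP-negative libraries. The *s100w* value is less certain, with a standard error of 0.68 and 2, 0 and 11 counts in GFP-negative libraries 1 to 3. *s100a1*, *icn* and *s100u* had log2 fold changes of 2.61, 2.33 and 1.18.

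Among 25 listed genes of membrane repair and calcium-dependent membrane binding, processes that annexins take part in, 23 were found. In GFP-positive cells 11 were higher and 4 lower, against 24.1% and 25.0% of all genes tested, and the median log2 fold change was 0.42. At least 2-fold higher were 2 of the 23, beside 8.45% of all genes tested, namely *capns1a*, the small regulatory subunit of calpains, with 154 to 168 TPM in GFP-positive and 65.4 to 70.6 TPM in GFP-negative libraries (log2 fold change 1.48), and *pdcd6*, encoding the calcium sensor ALG-2, with 24.2 to 28.8 TPM in GFP-positive and 11.5 to 13.2 TPM in GFP-negative libraries (log2 fold change 1.21). Genes of the ESCRT machinery, which cuts membrane necks, were called in both directions, with *chmp4bb* (0.42) and *chmp4c* (0.63) higher, *chmp4ba* (-0.30) and *vps4a* (-0.39) lower, and *chmp3*, *vps4b* and the associated *pdcd6ip* not called. The other lower genes were *ano5b* and *cpne3*. The log2 fold changes of the 4 lower genes lay between -0.49 and -0.21. The largest difference of the list was the 1.48 of *capns1a*, so no gene of this list differed as much as *anxa1b*, *anxa1c* or *anxa2a*.

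The genes nearest in level to the 3 most abundant of the 10 annexins in GFP-positive cells were looked up among 9291 genes with a mean TPM above 10 in the population where they were higher, by the Euclidean distance of log2(TPM + 1) over the 6 libraries. Nearest to *anxa1c* were *si:ch73-23l24.1* at a distance of 0.416, the keratin gene *krt17* at 0.850 and *lye* at 0.877. Nearest to *anxa1b* were *si:ch1073-340i21.3* at 0.286, the urate oxidase gene *uox* at 0.427 and *CABZ01044297.1* at 0.567. Nearest to *anxa4* were *lpar2b* at 0.127, *sfrp5* at 0.197 and the creatine kinase gene *ckba* at 0.2, all with a log2 fold change of 0.71 to 0.80. This measure reads level and difference together, and over 6 libraries in 2 groups it mostly reflects the group means.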

How the data were processed

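RNA from sorted GFP-positive and GFP-negative cells was amplified with SMART-Seq v4 and made into Nextera XT libraries, which do not mark strand, so reads of genes that overlap on opposite strands cannot be told apart. The submitters' processing notes name Trimmomatic 0.35, kallisto 0.41, sleuth and the build danRer10. The authors deposited for each library estimated counts and TPM values of 51286 transcripts, with an effective length for each. Estimated counts are not normalized, and the deposited TPM values are scaled by effective length and to a common library total. The deposited effective length is another quantity in bases and served only to describe transcripts. The columns of the authors' own sleuth comparison hold effects, p-values and q-values and were not used.

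Estimated counts were summed per gene identifier, rounded, and compared in edgeR 4.0.16 (R 4.3.3, TMM, default low-count filter, quasi-likelihood test, Benjamini-Hochberg adjustment over 20944 genes). The common biological coefficient of variation was 0.0952, and each standard error was obtained as the log2 fold change over the root of its F statistic. Total counts of 40584467 to 49679602 per library put 3 counts at 0.0604 to 0.0739 CPM. On simulated counts for this comparison (20726 genes, 200 changed), the test recovered 79.2% of the changed genes, or 95.4% for changes of 2-fold and more, and 8 unchanged genes were called. The simulation gave every gene the same common variation and changed far fewer genes than were called in the data. These rates therefore need not hold for the real libraries. Of 26190 identifiers, 22789 were in the gene name table. Libraries of 1 group differed from each other by more than counting noise, and GFP-positive library 3 differed most. Its chi-square per degree of freedom was 20.28 against GFP-positive library 1 and 11.97 against GFP-positive library 2. Other pairs of libraries within a group had 5.27 to 6.84.

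The annexins, the gene lists and the tests were chosen with earlier results of these data known, and the limits of 0.05 on the adjusted p and 1 on the TPM come from the results of the study, with the TPM limit applied here to whichever population was higher. The stricter 0.01 of its methods was an alternative. Named beside the 10 annexins are all other annexin genes, *krt4* and the listed genes called at least 2-fold. Named too are the 3 genes nearest to each of the 3 most abundant of the 10 annexins in GFP-positive cells. Of the 3 most abundant others in the S100 and membrane repair lists, by mean TPM in GFP-positive cells, only *s100a11* and *chmp4bb* are described. Left out were *s100v2*, *s100t* and *capns1b*, which were called higher, and *cpne1*, which was not called. All genes of the eicosanoid list are described. The genes called lower and the ESCRT genes of the membrane repair list were named after their values were seen. So were *s100a10a*, the phospholipase A2 genes, *alox5a* and the markers beside *krt4*. Alternatives were DESeq2 1.42.0, RLE factors, no TMM, no low-count filter, a replicate block, each library left out, limma 3.58.1 on log2 TPM with a pseudocount of 1 or 0.1, other thresholds, and single transcripts. The sum of the neighbouring *anxa1* genes and the restriction to annexins with whole counts were added after seeing the data. The ATAC-seq, ChIP-seq and reporter experiments were not analysed here.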

Additional observations from a re-analysis of the deposited data

How the results depend on the processing

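The number of annexins called higher was 8 with DESeq2, RLE factors, no TMM, no low-count filter, both limma settings, no TPM limit, an adjusted p below 0.01 and each library left out. It was 7 with a mean TPM above 10, which *anxa1d* does not reach, and 5 among the 7 annexins whose counts are whole (chosen after seeing the data). Annexins called lower were 0, except for 1 (*anxa5b*) with limma on log2(TPM + 1) or log2(TPM + 0.1). *anxa5b* had -0.54 (adjusted p = 0.0274) and -0.73 (adjusted p = 0.0314) under these limma settings and turned to 0.05 (adjusted p = 0.916) with its most abundant transcript alone. *anxa2b* reached -1.51 (limma on log2(TPM + 0.1), adjusted p = 0.049) and -2.98 without GFP-positive replicate 1, with a range of -2.98 to -0.78 over the libraries left out. The cause of these shifts was not tested. With a mean TPM above 10, 2790 genes were higher and 3480 lower, fewer because fewer genes were eligible. Without division by length 4 annexins changed place in the GFP-positive order, and without GFP-positive replicate 3 the order of *anxa3b* and *anxa6* was exchanged (0 to 2 moved over the libraries left out). The *anxa1b* to *anxa1c* balance turned to 0.25 with log2(TPM + 0.1), and the *anxa3b* to *anxa3a* and *anxa5b* to *anxa5a* balances moved as given above. *anxa6* had 0.57 and 0.60 under the limma settings. All annexins called higher had smaller differences under both limma settings than in edgeR, as with 4.22 and 4.38 for *anxa1c*.

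Leaving out each library gave log2 fold changes of 1.94 to 2.07 for *anxa1a*, 4.81 to 4.86 for *anxa1b*, 4.79 to 4.89 for *anxa1c*, 1.23 to 1.52 for *anxa1d*, 3.34 to 3.45 for *anxa2a*, 1.55 to 1.71 for *anxa3b*, 0.78 to 0.88 for *anxa4*, -0.43 to -0.11 for *anxa5b* and 0.89 to 1.11 for *anxa6*. The paper describes both populations as isolated in each replicate, whereas the main test did not pair libraries by number. Replicates that share a number did not deviate together (correlations of 0.004, -0.01 and -0.002), which cannot tell whether they came from the same sort. With the replicate block 8 annexins were higher, 0 lower, and *anxa2b* had -1.59 (edgeR, adjusted p = 0.0751). Depth limits *anxa2b* and *anxa5a* most, with 37 counts or fewer per library.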

Other observations

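Annexin A1 was first described as an inhibitor of phospholipase A2, the enzyme that releases the precursor of prostaglandins and leukotrienes. Of 7 listed genes for this pathway and for the annexin A1 receptor, 2 were higher in GFP-positive cells and 0 lower. Among all genes tested 24.1% were higher and 25.0% lower, by the quasi-likelihood test of edgeR, adjusted as above. The median log2 fold change of the list was 0.16, beside 0.02 over all genes tested. The phospholipase A2 genes *pla2g4aa* (log2 fold change -0.09, adjusted p = 0.811) and *pla2g4ab* (0.17, adjusted p = 0.772) were not called in edgeR. Nor were *alox5a* (0.16) and *ptgs1* (0.06). The cyclooxygenase gene *ptgs2b* had 11.4, 11.4 and 10 TPM in GFP-positive libraries, against 5.15, 4.84 and 5.41 TPM in GFP-negative libraries (log2 fold change 1.21, adjusted p = 4.45e-07). Its paralog *ptgs2a* had 85.1 to 87.9 TPM in GFP-positive and 50.0 to 60.3 TPM in GFP-negative libraries (log2 fold change 0.73, adjusted p = 6.13e-07). The formyl peptide receptor gene *fpr1* had 3.45 to 4.04 TPM in GFP-positive and 3.35 to 4.81 TPM in GFP-negative libraries and was not called (log2 fold change 0.07, adjusted p = 0.703).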
